A study of Mus musculus with 8 samples.

Results

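The genes of the subcortical maternal complex and of the cytoplasmic lattices were examined in mouse oocytes before and after meiotic maturation, and in matured oocytes that overexpressed wild-type or mutant BTG4. The members were listed by symbol as Nlrp5, Ooep, Tle6, Khdc3, Zbed3, Nlrp2, Nlrp4f and Padi6. All 8 were present in every library, among 15962 genes listed in every library, and all 8 were among the 13968 genes tested. The rule that lists them names symbols and uses no measured value, but it was set with earlier results of these data known.

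The subcortical maternal complex is an assembly of maternal proteins that forms while the oocyte grows and lies beneath the cortex of the egg and of the early embryo. NLRP5 (MATER), OOEP (FLOPED), TLE6 and KHDC3 (FILIA) make up its core, ZBED3 takes part in it, and NLRP2 and NLRP4F are NLR-family proteins associated with it. PADI6 is a peptidylarginine deiminase family protein required for the cytoplasmic lattices, a fibrous store in the egg cytoplasm. The genes are maternal effect genes: the mother's mRNA and protein must serve the embryo until its own genome is active. BTG4 is an adaptor that brings the CCR4-NOT deadenylase to mRNA and so takes part in the clearance of maternal transcripts in maturation.

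Each of 4 groups had 2 libraries, although the labels speak of 3 samples per group. GV oocytes were fully grown, with an intact germinal vesicle, and MII oocytes had matured to metaphase II in culture, and neither group received an injection. Btg4wt and Btg4tm were MII oocytes that overexpressed wild-type BTG4 or a mutant in which 3 residues were replaced by alanine, from cRNA microinjected into fully grown oocytes. The study's methods give ICR mice, an outbred stock, with females of 6 weeks as oocyte donors, and the labels give 15 pooled oocytes without zona per library. The injected oocytes kept their own Btg4 gene. The libraries were started with an oligo(dT) primer, so a longer poly(A) tail and a larger number of molecules cannot be told apart in these values.

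Expression was given by the authors as TPM, a share of the library corrected for gene length. Comparisons of level between genes are approximate. The gene lengths used are not given, and tail length cannot be told apart from the number of molecules. Scaled TPM are these values divided by 1 factor per library. A gene was called higher or lower when the Benjamini-Hochberg adjusted p of limma was under 0.05 and the log2 fold change was over 1 in size. Nothing in the sources used here says whether the libraries of a group came from separate animals, so the p-values measure only the spread between these libraries. Sequencing depth is unknown, since TPM carry no read totals.

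The libraries of a group correlated at 0.982 to 0.987 across genes. All 10 oocyte markers (zona pellucida genes, Gdf9, Bmp15 and others) stood above 1 TPM in every library and summed to between 14286 and 27717 TPM. Of these, 1 was called higher and 5 lower in MII than in GV, and 4 were called higher in Btg4tm than in Btg4wt. The 14 cumulus and granulosa markers summed to between 36.6 and 49.0 TPM, 6 of them, including Foxl2 and Amhr2, were in none of the tables, and 4 could be tested. One of the 4, the inhibin gene Inha, was called lower in MII than in GV (log2 fold change -1.72) and higher in Btg4tm than in Btg4wt (1.74). The other 3, Cyp19a1, Kitl and Nr5a2, were not called and had the opposite signs, at 0.63, 0.95 and 0.27 for MII against GV and -0.23, -0.76 and -0.87 for Btg4tm against Btg4wt. The part of these markers in the results below was not tested. Mitochondrially encoded genes held 0.623 to 0.648% of TPM in GV, 2.60 to 2.70% in MII, 1.76 to 2.07% in Btg4wt and 0.771 to 1.03% in Btg4tm.

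Btg4 itself stood at 2650 and 2794 scaled TPM in GV, 5792 and 6002 in MII, 5178 and 5510 in Btg4wt, and 3725 and 4068 in Btg4tm. The Btg4wt libraries lay below both MII libraries, and the Btg4tm libraries lay between GV and the other MII groups. The overexpression was thus not visible as more Btg4 RNA than in MII. The study showed it at the protein level, by immunoblot. It adds that either injected form seemed to lower the oocytes' own BTG4 protein, a point it leaves to be clarified. These RNA values do not bear on the protein. Whether libraries started with an oligo(dT) primer captured the injected RNA was not tested. In limma the log2 fold change of Btg4 was 1.12 ± 0.10 (SE, adjusted p = 3.13e-05) for MII against GV and -0.46 ± 0.10 (adjusted p = 0.00569) for Btg4tm against Btg4wt, which was under the fold required for a call. The first was called with the scaling used here, but was under that fold with TPM as deposited (0.96) and with quantile normalization (0.33, adjusted p = 0.0371), and the second was -0.24 (adjusted p = 0.118) with quantile normalization. The median of all genes stood at 0.28 and -0.19 with quantile normalization. With libraries scaled to the mitochondrially encoded genes the fold changes of Btg4 turned to -1.10 and 0.63, while the median of all genes stood at -1.74 and 0.88.

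The 8 genes lie on 5 chromosomes of GRCm38. In the GENCODE M21 annotation, Nlrp5 (ENSMUSG00000015721) is on the plus strand at chr7:23385889-23441922 with 16 exons in the coding transcript used here, and Nlrp2 (ENSMUSG00000035177) is on the minus strand at chr7:5298547-5351035 with 12. Ooep (ENSMUSG00000032346) is on the minus strand at chr9:78376109-78378725 and Khdc3 (ENSMUSG00000092622) on the plus strand at chr9:73101836-73104438, both with 3 exons. These 2 genes belong to 1 family of small KH-domain proteins and lie on the same chromosome. Zbed3 (ENSMUSG00000041995) is on the plus strand at chr13:95323612-95337841 with 2 exons, and Nlrp4f (ENSMUSG00000032999) on the minus strand at chr13:65177111-65205977 with 11. Tle6 (ENSMUSG00000034758) is on the minus strand at chr10:81590904-81601073 with 14 exons, and Padi6 (ENSMUSG00000040935) on the minus strand at chr4:140727355-140742643 with 16.

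Reads of some of these genes could also match other genes, and the authors kept only reads with a mapping quality of at least 10. How such reads moved the levels was not tested. Of the exonic bases of Khdc3, 38.5% lay in exons of Gm20509, a protein-coding gene on the same strand, and 42.8% of the 50-base stretches of its transcript occurred in that gene. Gm20509 was in none of the tables used here, and the level of Khdc3 is therefore uncertain. For Nlrp5 the share of such stretches was 8.93%, most of them in the pseudogene Nlrp5-ps, which stood at 0.140 to 0.862 TPM. For Nlrp4f it was 7.08%, most of them in the pseudogene Nlrp4g, which stood at 406 to 576 TPM. Zbed3 and Padi6 shared no 50-base stretch with another annotated gene, and Ooep, Tle6 and Nlrp2 shared under 2%.

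The 3′ ends are shown because tails are lengthened or shortened there during maturation. The polyadenylation signal, AATAAA or ATTAAA, sets the cleavage site. The cytoplasmic polyadenylation element, searched here as TTTTAT and TTTTAAT on the transcript strand, is bound by CPEB1 and is known for tail lengthening in maturing oocytes. Each sequence below has 30 bases of the 3′ UTR, 5′ to 3′, from the GENCODE M21 transcripts, with both motifs in capitals. Adjoining and overlapping matches run together.

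Zbed3 (chr13:95337807-95337836, plus): ccttttttttTTTTAATAAAcTTTTATtta
Nlrp4f (chr13:65177125-65177154, minus): tgttttgtgTTTTATATTAAAgaatagtag
Tle6 (chr10:81590907-81590936, minus): cgagttgcgtgtAATAAAacaattgaaatg
Khdc3 (chr9:73104409-73104438, plus): ttaaagtattctAATAAAaaaaaaattgca
Nlrp2 (chr7:5298552-5298581, minus): ggtatattggggAATAAAagggaaaacatg
Padi6 (chr4:140727361-140727390, minus): tgccatagagccAATAAAgcatggtattct
Nlrp5 (chr7:23441887-23441916, plus): tagcaagaatgaAATAAAcacagcatttag

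Zbed3 and Nlrp4f held a TTTTAT or TTTTAAT match in the last 150 bases of the 3′ UTR, 2 matches each, and the other 6 genes held none. In Zbed3 the TTTTAAT began 25 bases before the transcript end and overlapped the polyadenylation signal, and a TTTTAT lay downstream of the signal, 14 bases before the end. In Nlrp4f a TTTTAT began 29 bases before the end, directly upstream of ATTAAA, and another began 112 bases before the end. For Nlrp5 and Tle6 the whole 3′ UTR, of 109 and 130 bases, was shorter than the window. Of 10985 tested genes with an annotated 3′ UTR, 25.1% held at least 1 such match and 5.30% at least 2. A signal lay in the last 40 bases in 7 of the 8 genes and in 77.0% of the 10985. Ooep, whose annotated 3′ UTR has 1446 bases, held neither a signal nor a match there, and no sequence is shown for it.

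In GV oocytes the levels ran from 9805 ± 1671 scaled TPM (SD, n = 2) for Zbed3 down to 216 ± 15.0 for Nlrp2. Padi6 was second at 3061, followed by Ooep at 1097, Nlrp4f at 927, Tle6 at 898, Nlrp5 at 712 and Khdc3 at 360. Neighbours in this order did not overlap, except Nlrp4f and Tle6. By deposited TPM, Zbed3 ranked 7 and 4 of 15962 genes in GV, 2 in both MII libraries, 3 in both Btg4wt libraries and 11 and 8 in the Btg4tm libraries. In MII, Zbed3 and Padi6 stayed first and second, Nlrp4f and Nlrp5 stood above Ooep and Tle6, and the libraries of Nlrp2 and Khdc3, last in the order, overlapped. In Btg4tm the libraries of each neighbouring pair from Nlrp4f through Tle6 and Ooep to Nlrp5 overlapped, as did those of Khdc3 and Nlrp2.

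**Figure D1:**
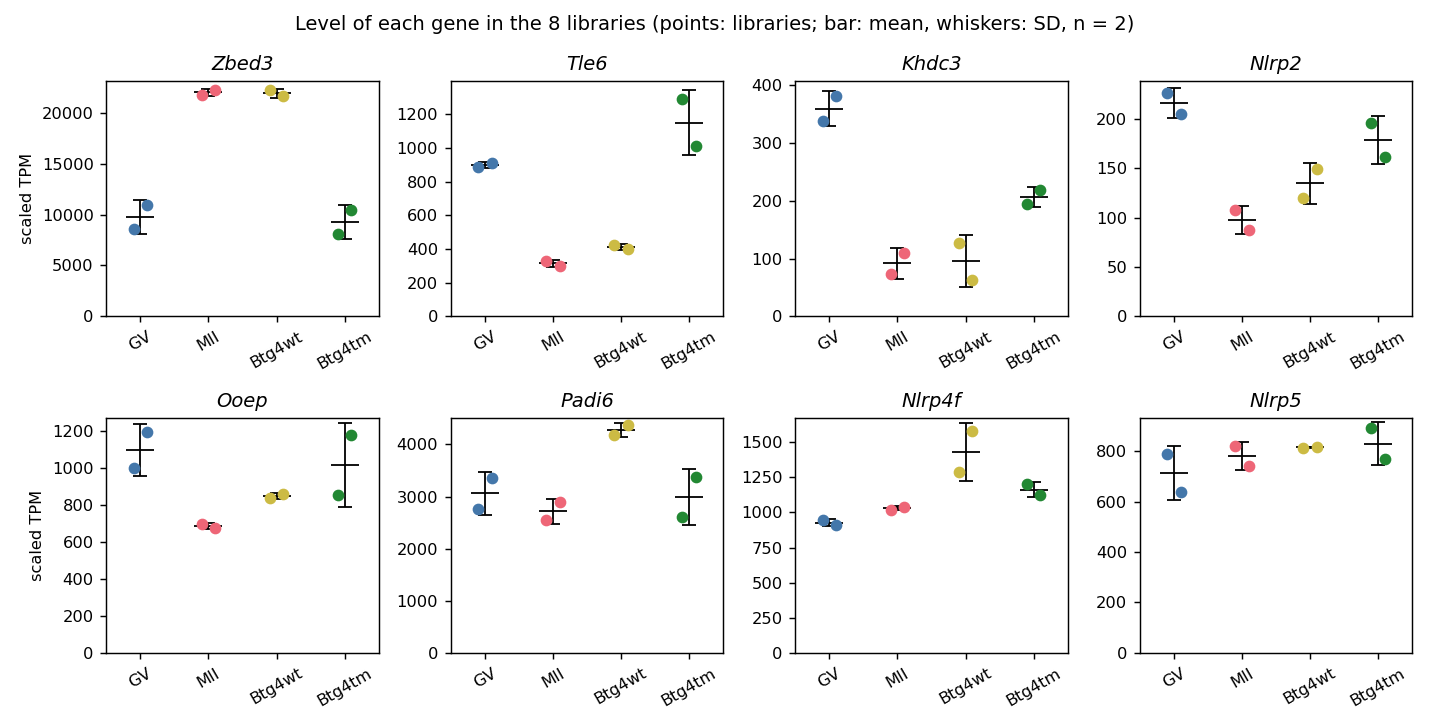
Scaled TPM (vertical axis, from 0, a scale of its own in each panel) of the 8 genes in the 4 groups (horizontal axis), with points for libraries, a bar for the mean and whiskers for the SD. Zbed3 lies at a mean of 22040 in MII and 21972 in Btg4wt, and of 9805 in GV and 9302 in Btg4tm, Tle6 and Khdc3 run the other way, and Nlrp5 stays between 637 and 891, whereas scaling to the mitochondrially encoded genes places the MII level of all 8 genes below that of GV.

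In the comparison of MII with GV, which asks what maturation did to these transcripts, Zbed3 was called higher and Tle6, Khdc3 and Nlrp2 were called lower, while Nlrp5, Ooep, Nlrp4f and Padi6 were not called. Over all genes tested, 12.5% were called higher and 24.0% lower. At the adjusted p alone 1 of the 8 was higher and 4 were lower, with 29.8% and 32.8% of all genes. The median log2 fold change of the 8 genes was -0.42 and that of all genes -0.0017. Libraries of the groups did not overlap for 6 of the 8 genes, against 82.7% of all genes. With scaling to the mitochondrially encoded genes all 8 were called lower, as were 11403 of all genes with 7 higher.

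In the comparison of Btg4tm with Btg4wt, which asks whether the mutated residues matter for these transcripts, the same genes apart from Nlrp2 were called, each with the opposite sign. Tle6 and Khdc3 were higher and Zbed3 was lower in Btg4tm, and the other 5 genes were not called. Over all genes, 18.1% were called higher and 7.94% lower. At the adjusted p alone 2 of the 8 were higher and 2 lower, with 26.2% and 23.3% of all genes. The median was 0.13 for the 8 genes and 0.01 for all genes, and libraries did not overlap for 6 of the 8 genes against 74.3% of all genes. With scaling to the mitochondrially encoded genes 5 were called higher and 0 lower, with 6089 and 69 of all genes. It shares no library with the comparison of MII with GV, although 1 fit gave the spread of both.

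Zbed3, a BED-type zinc finger gene whose product also binds axin, was the only one of the 8 that was called higher in MII, with the scaling used here. It stood at 8623 and 10987 scaled TPM in GV, 21817 and 22263 in MII, 22290 and 21655 in Btg4wt, and 8135 and 10469 in Btg4tm. MII and Btg4wt were high and overlapped, GV and Btg4tm were low and overlapped, and no library lay between these 2 levels. In limma the level in MII was 2.26-fold that in GV (log2 fold change 1.18 ± 0.16, SE, adjusted p = 0.000307), and it was 2.38-fold lower in Btg4tm than in Btg4wt (-1.25 ± 0.16, adjusted p = 0.000338). The size of the change depended on the scaling. With quantile normalization the log2 fold changes were 0.58 and -0.93, under the fold required, while the medians of all genes were 0.28 and -0.19. With scaling to the mitochondrially encoded genes the first fold change turned to -1.04, which was 0.70 above the median of all genes. The second fold change was then -0.16, which was 1.04 below the median of all genes.

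Tle6, which encodes a Groucho-family protein without which the complex does not form, moved opposite to Zbed3. Its libraries stood at 886 and 910 scaled TPM in GV, 327 and 301 in MII, 426 and 398 in Btg4wt, and 1289 and 1014 in Btg4tm. The Btg4tm libraries were the highest of all 8, and the MII libraries the lowest. Tle6 was 2.86-fold lower in MII than in GV (log2 fold change -1.52 ± 0.12, SE, adjusted p = 2.06e-05, limma) and 2.77-fold higher in Btg4tm than in Btg4wt (1.47 ± 0.12, adjusted p = 3.92e-05). Its call in both comparisons and its sign were the same under every alternative tried.

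Khdc3, whose product is a KH-domain protein with a known role in the stability of the early embryo's chromosomes, had the largest fall of the 8 with the scaling used here. Its libraries stood at 338 and 381 scaled TPM in GV, 73.0 and 110 in MII, 128 and 63.3 in Btg4wt, and 195 and 219 in Btg4tm. MII and Btg4wt overlapped at the lowest levels, and both Btg4tm libraries lay between these and GV. The gene was 3.97-fold lower in MII than in GV (log2 fold change -1.99 ± 0.30, SE, adjusted p = 0.000604, limma) and 2.28-fold higher in Btg4tm than in Btg4wt (1.19 ± 0.30, adjusted p = 0.0118). The second call was lost under 3 alternatives. With quantile normalization the log2 fold change was 0.96 (adjusted p = 0.0270), under the fold required, without Btg4wt replicate 2 it was 0.68 (adjusted p = 0.0519), and without Btg4tm replicate 2 it was 1.10 (adjusted p = 0.0573).

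Ooep, the small KH-domain partner of Khdc3 in the core, stood at 998 and 1195 scaled TPM in GV, 698 and 676 in MII, 835 and 857 in Btg4wt, and 852 and 1175 in Btg4tm. Its MII libraries were the lowest, its GV libraries lay above those of MII and Btg4wt, and the Btg4tm libraries were spread from the Btg4wt level to the GV level. The log2 fold change was -0.67 ± 0.16 (SE) for MII against GV, which passed the adjusted p (0.00565, limma) but not the fold required. It was 0.24 ± 0.16 (adjusted p = 0.229) for Btg4tm against Btg4wt. With scaling to the mitochondrially encoded genes both were called, at -2.88 and 1.33, while the medians of all genes were -1.74 and 0.88.

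Nlrp5, among the earliest maternal effect genes described in the mouse, stood between 637 and 891 scaled TPM in all 8 libraries. The libraries stood at 788 and 637 in GV, 821 and 742 in MII, 814 and 816 in Btg4wt, and 891 and 769 in Btg4tm, and all 4 comparisons were between overlapping groups. The log2 fold change was 0.14 (95% interval -0.15 to 0.44, adjusted p = 0.365, limma) for MII against GV and 0.02 (-0.27 to 0.32, adjusted p = 0.902) for Btg4tm against Btg4wt. Both intervals lay within the fold required for a call. With scaling to the mitochondrially encoded genes Nlrp5 was called lower in MII than in GV (-2.07, adjusted p = 3.53e-06). It was then called higher in Btg4tm than in Btg4wt (1.11, adjusted p = 0.00141), while the medians of all genes were -1.74 and 0.88.

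Nlrp2, an NLR-family gene required in the egg for early development, stood at 226 and 205 scaled TPM in GV, 108 and 87.4 in MII, 120 and 149 in Btg4wt, and 196 and 162 in Btg4tm. The groups did not overlap, with GV highest and MII lowest. The gene was 2.21-fold lower in MII than in GV (log2 fold change -1.14 ± 0.16, SE, adjusted p = 0.000337, limma), a call that was lost for the fold without MII replicate 2 (-0.98) and with quantile normalization (-0.995). In Btg4tm against Btg4wt the log2 fold change was 0.41 ± 0.16 (adjusted p = 0.0616). With scaling to the mitochondrially encoded genes it was 1.49 and called, while the median of all genes was 0.88.

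Nlrp4f, the other NLR-family member, stood at 944 and 909 scaled TPM in GV, 1019 and 1038 in MII, 1285 and 1576 in Btg4wt, and 1198 and 1126 in Btg4tm. The lowest level was in GV and the highest in Btg4wt, and no groups overlapped. The log2 fold change was 0.15 (95% interval -0.11 to 0.41, adjusted p = 0.276, limma) for MII against GV and -0.29 (-0.55 to -0.03, adjusted p = 0.0622) for Btg4tm against Btg4wt. Reads in stretches identical to Nlrp4g cannot be assigned to either gene.

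Padi6, the lattice gene, stood at 2765 and 3356 scaled TPM in GV, 2552 and 2889 in MII, 4180 and 4375 in Btg4wt, and 2608 and 3379 in Btg4tm. The Btg4wt libraries were the highest, and the other 3 groups overlapped. The log2 fold change was -0.17 (95% interval -0.52 to 0.18, adjusted p = 0.367, limma) for MII against GV. With quantile normalization it was -0.77 (adjusted p = 0.000873), past the adjusted p but not the fold required. For Btg4tm against Btg4wt it was -0.53 ± 0.15 (SE), which passed the adjusted p (0.0202) but not the fold required. Leaving out 1 library at a time, it ran from -0.71 to -0.34. It was -0.31 (adjusted p = 0.0709) with quantile normalization, and it turned to 0.56 with scaling to the mitochondrially encoded genes, under which the median of all genes was 0.88.

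**Figure D2:**
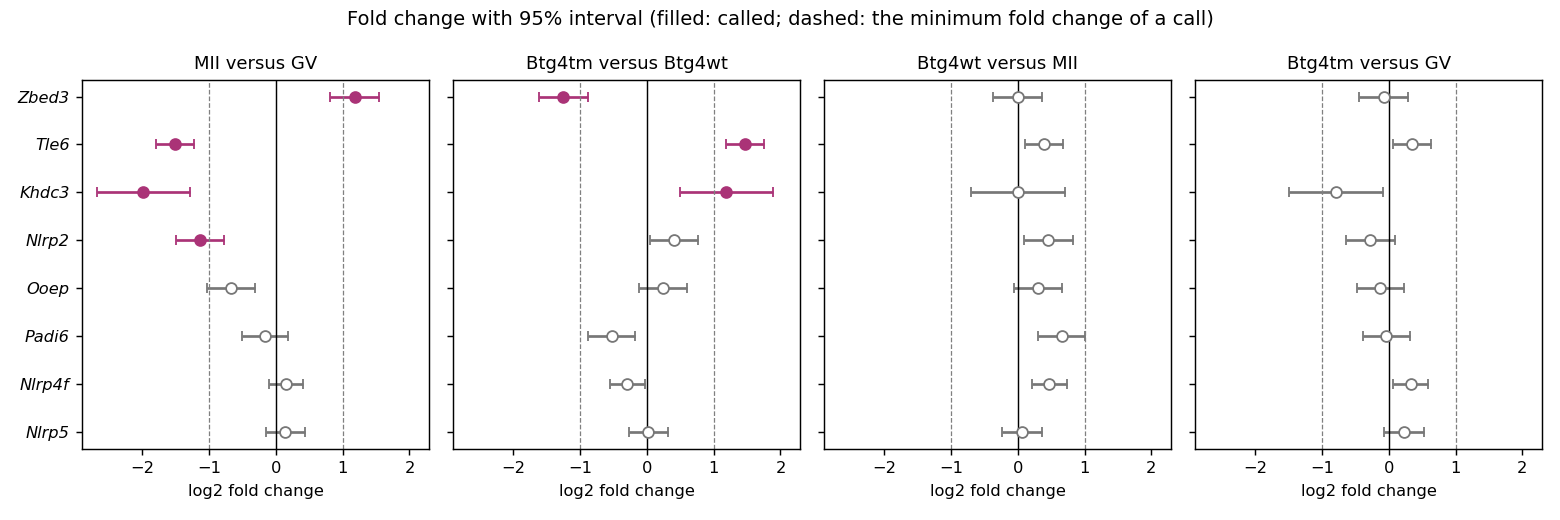
Log2 fold change (horizontal axis) of each gene in the 4 comparisons, with the 95% interval of limma, filled points for called genes and dashed lines at the fold required. Zbed3 is at 1.18 for MII against GV and at -1.25 for Btg4tm against Btg4wt, Tle6 at -1.52 and 1.47, and Khdc3 at -1.99 and 1.19, whereas with scaling to the mitochondrially encoded genes Zbed3 is at -1.04 and -0.16.

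Because of these opposite changes the balance between the transcripts differed between groups. Ratios within a library do not depend on a scaling by 1 factor per library, but quantile normalization changes them. For each Tle6 TPM there were 9.73 and 12.1 Zbed3 TPM in GV, 66.7 and 74.0 in MII, 52.3 and 54.4 in Btg4wt, and 6.31 and 10.3 in Btg4tm. MII and Btg4wt lay far above GV and Btg4tm, which overlapped. Khdc3 was at 0.429 and 0.599 of Nlrp5 in GV, 0.0889 and 0.149 in MII, 0.157 and 0.0776 in Btg4wt, and 0.219 and 0.285 in Btg4tm. Here the Btg4tm libraries lay above MII and Btg4wt and below GV. The pairs of genes were chosen after the values were seen, and the ratios were not tested.

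The 8 genes together held 1.65 and 2.06% of deposited TPM in GV, 2.67 and 2.72% in MII, 2.98 and 2.89% in Btg4wt, and 1.52 and 1.74% in Btg4tm. Zbed3 alone made 55.4 and 59.1% of the members' sum in GV, 79.6 and 79.2% in MII, 74.1 and 72.4% in Btg4wt, and 52.9 and 57.2% in Btg4tm. Without Zbed3 the other 7 genes held 0.738 and 0.841% of TPM in GV and 0.546 and 0.566% in MII. They held 0.772 and 0.797% in Btg4wt and 0.716 and 0.743% in Btg4tm, so the larger share in MII than in GV was that of Zbed3. With 2 libraries against 2, a permutation test cannot reach p = 0.05, and none was made of these sums.

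**Figure D3:**
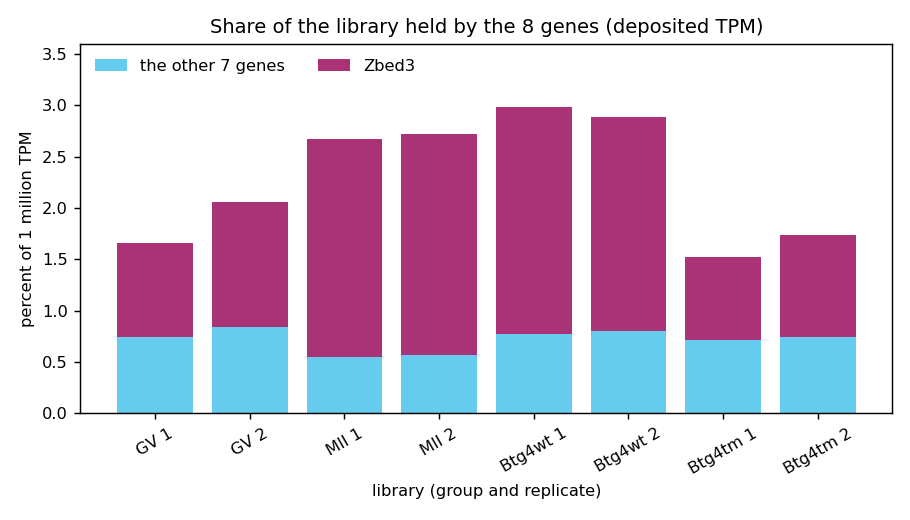
Percent of deposited TPM (vertical axis, from 0) held by Zbed3 and by the other 7 genes in each of the 8 libraries (horizontal axis). The MII and Btg4wt libraries reach 2.67 to 2.98% with most of it in Zbed3, and the GV and Btg4tm libraries 1.52 to 2.06%, while the sum relative to the mitochondrially encoded genes is lower in MII than in GV.

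Whether overexpression of wild-type BTG4 changed the transcripts beyond maturation was asked by setting Btg4wt against MII. None of the 8 genes was called by limma, and neither was any of the 13968 genes (0% higher and 0% lower). At an unadjusted p under 0.05, 4 of the 8 genes and 11.8% of all genes passed. These 4 were Padi6 (log2 fold change 0.66 ± 0.15, SE, adjusted p = 0.211), Nlrp4f (0.47 ± 0.11, adjusted p = 0.225), Nlrp2 (0.46 ± 0.16, adjusted p = 0.332) and Tle6 (0.39 ± 0.12, adjusted p = 0.307). Zbed3 differed by -0.0045 (-0.37 to 0.36) and Khdc3 by 0.0026 (-0.70 to 0.70), and the wide interval of Khdc3 does not show that the groups were alike. Libraries of the groups did not overlap for 5 of the 8 genes, against 44.9% of all genes. The uninjected and injected libraries listed 17384 and 16448 genes, and injection and any difference between these sets of tables cannot be told apart.

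Btg4tm against GV asks how close the matured oocytes with the mutant stood to oocytes that had not matured. With the scaling used here limma called none of the 8 genes, against 1.02% of all genes higher and 1.02% lower. None passed the adjusted p alone (7.66% of all genes higher and 3.73% lower). At an unadjusted p under 0.05, 3 of the 8 genes and 29.7% of all genes passed. Tle6 differed by 0.35 (95% interval 0.06 to 0.63, adjusted p = 0.108), Nlrp4f by 0.33 (0.07 to 0.59, adjusted p = 0.101) and Khdc3 by -0.79 (-1.49 to -0.10, adjusted p = 0.127). For Zbed3 the difference was -0.08 (-0.44 to 0.29), which covers 0 and leaves out the fold required for a call. For Khdc3 the interval reached past that fold, and both its Btg4tm libraries lay below both GV libraries. Libraries did not overlap for 4 of the 8 genes, against 59.5% of all genes. With scaling to the mitochondrially encoded genes Khdc3 was called lower (-1.43, adjusted p = 0.00433, limma), as were 2972 of all genes, with 38 higher. There Ooep (-0.76), Zbed3 (-0.71), Nlrp2 (-0.91) and Padi6 (-0.67) also passed the adjusted p. Nlrp5, Tle6 and Nlrp4f did not, and the median of all genes was -0.64. With quantile normalization Padi6 (-0.57, adjusted p = 0.0276) passed the adjusted p alone, and Zbed3 was at -0.56 (adjusted p = 0.102).

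Among all genes tested, the change of Zbed3 from GV to MII lay at the 92.6 percentile and that from Btg4wt to Btg4tm at the 4.37 percentile. Tle6 lay at the 16.2 and 88.3 percentiles and Khdc3 at the 10.7 and 84.6 percentiles. Across genes, tested transcripts with at least 1 TTTTAT or TTTTAAT match (2753 genes) had a median log2 fold change of 0.48 for MII against GV and those without (8232 genes) -0.14. For Btg4tm against Btg4wt the medians were -0.22 and 0.05. Of the 2 members with such matches, Zbed3 was called in both comparisons and Nlrp4f in neither.

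**Figure D4:**
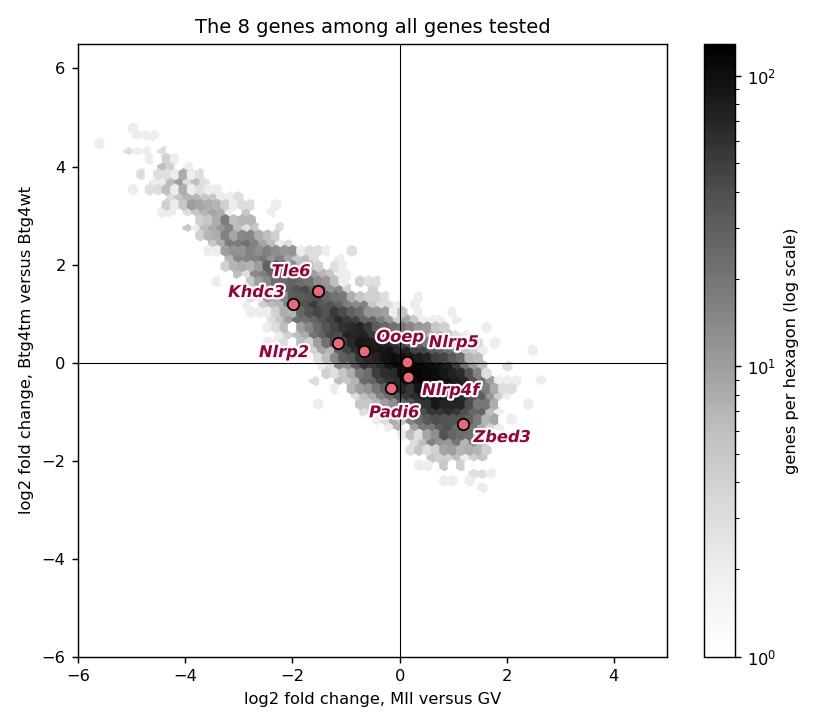
Log2 fold change for MII against GV (horizontal axis) and for Btg4tm against Btg4wt (vertical axis) of all 13968 genes, with the number of genes per hexagon in grey on a log scale and the 8 genes as labelled points. Tle6 and Khdc3 lie at the upper left, Zbed3 at the lower right (at 1.18 and -1.25, or at -1.04 and -0.16 with scaling to the mitochondrially encoded genes), and Nlrp5 near the centre.

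Over the 8 libraries, log2(scaled TPM + 1) of Tle6 and Zbed3 correlated at -0.96, Khdc3 and Zbed3 at -0.84, Nlrp2 and Zbed3 at -0.87, and Tle6 and Nlrp2 at 0.87. These are descriptions over 4 groups of 2 libraries and follow mainly from the difference between groups. Among 4743 genes whose mean was 10 scaled TPM or more and whose log2 range was 1 or more, the gene most like Zbed3 was Myo5b (r = 0.997), like Tle6 Sfta2 (0.99), like Khdc3 Snrpb (0.99) and like Nlrp2 Mtmr7 (0.98). Myo5b, a motor protein gene, stood at 64.3 and 76.6 scaled TPM in GV, 153 and 158 in MII, 158 and 149 in Btg4wt, and 54.0 and 69.0 in Btg4tm. Snrpb, which encodes a core splicing protein, stood at 34.4 and 34.8 in GV, 4.11 and 6.68 in MII, 6.73 and 2.69 in Btg4wt, and 14.3 and 17.2 in Btg4tm. Myo5b was high in MII and Btg4wt, as Zbed3 was, and Snrpb was highest in GV, lower in Btg4tm and lowest in the overlapping MII and Btg4wt libraries, as Khdc3 was. For Ooep the nearest was Gng3 (0.96), for Nlrp4f Ddx4 (0.97), for Padi6 Dym (0.93) and for Nlrp5, which varied little, Tpt1-ps3 (0.87). For the mean profile of the 8 genes the nearest were Tmem38a (0.99), Slc10a3 (0.98), Aldoa (0.98), Gm34066 (0.98) and Lhpp (0.98).

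Other proteins described with the complex or the lattices were listed as Uhrf1, Nlrp14, Ube2d3, Fbxw24, Skp1a, Dnmt1, Dppa3 and Cfl1, and all 8 were tested. With the scaling used here limma called none of them for MII against GV, against 12.5% of all genes higher and 24.0% lower. Their median log2 fold change was 0.37 against -0.0017 for all genes. At the adjusted p alone 3 were higher and 1 was lower, with 29.8% and 32.8% of all genes, and 4 passed an unadjusted p under 0.05, with 66.4% of all genes. For Btg4tm against Btg4wt 0 were called higher and 1 lower, with 18.1% and 7.94% of all genes. At the adjusted p alone 2 were lower, with 23.3% of all genes. The gene called lower was Dnmt1, the maintenance DNA methyltransferase, at 395 ± 14.8 scaled TPM (SD, n = 2) in Btg4wt and 197 ± 44.9 in Btg4tm. Its log2 fold change was -1.01 ± 0.18 (SE, adjusted p = 0.00184), fell short of the fold without Btg4wt replicate 1 (-0.99) or without Btg4tm replicate 1 (-0.78), and turned to 0.07 with scaling to the mitochondrially encoded genes. The median of the 8 was -0.09 against 0.01. With scaling to the mitochondrially encoded genes all 8 were called lower for MII against GV, with 11403 of all genes. For Btg4tm against Btg4wt 4 were then called higher and 0 lower, with 6089 and 69 of all genes.

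The 23 genes listed as relatives by family, of the KHDC1, PADI, TLE, ZBED and NLRP families, were mostly low or absent. Other Nlrp4 genes and the Nlrp9 genes, also of the NLRP family, were not in this list. Nlrp14, at 2749 scaled TPM in GV, was counted with the other proteins above. The list therefore does not show that relatives in general were low. A total of 11 of the 23, among them Padi3, Zbed6 and the inflammasome genes Nlrp3, Nlrp6 and Nlrp12, were in none of the tables, and 11 could be tested. In MII against GV 3 of the 11 were called lower and 0 higher, with 24.0% and 12.5% of all genes. Dppa5a, the KH-domain relative of Ooep and Khdc3, fell from 2655 ± 256 scaled TPM (SD, n = 2) to 355 ± 111 (log2 fold change -2.93 ± 0.33, SE, adjusted p = 9.89e-05, limma). Padi4 and Tle5, with mean levels of 1.69 and 7.13 scaled TPM and named after their values were seen, were the others (-1.79 and -1.55). In Btg4tm against Btg4wt 2 were called higher and 1 lower, with 18.1% and 7.94% of all genes. Dppa5a was higher at 1934 ± 284 against 352 ± 173 (2.54 ± 0.33, adjusted p = 0.000343) and Padi4 was higher by 1.39, while Khdc1a was lower (-1.05 ± 0.28, adjusted p = 0.0133). The call of Khdc1a was lost without Btg4wt replicate 1 (adjusted p = 0.0600) or without Btg4tm replicate 1 (adjusted p = 0.0558), and the log2 fold change was -0.03 with scaling to the mitochondrially encoded genes. Khdc1b and Khdc1c were called in neither comparison with the scaling used here. With scaling to the mitochondrially encoded genes all 11 were called lower for MII against GV, with 11403 of all genes. For Btg4tm against Btg4wt 6 were then called higher and 0 lower, with 6089 and 69 of all genes.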

How the data were processed

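The 8 Smart-seq2 libraries of polyadenylated RNA, 2 per group, were each made from 15 oocytes. Groups and replicate numbers came from the sample labels. The authors trimmed reads with Trim Galore 0.6.10, aligned them to GRCm38 with HISAT2 2.2.0 and counted exonic reads with featureCounts 2.0.6 without regard to strand, keeping a mapping quality of at least 10. They deposited TPM per gene symbol. The gene lengths behind the TPM are not given in the sources used here. A change of abundant RNAs moves all shares, and depth cannot be had from TPM.

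The 15962 genes in all tables were scaled by the median of ratios (factors 0.948 to 1.11) and transformed to log2(TPM + 1), so that fold changes of low genes are understated. The 13968 genes that reached 1 TPM in 2 or more libraries were fitted with limma 3.58.1 in R 4.3.3 (eBayes with trend) over the 4 groups. Benjamini-Hochberg adjustment ran over all genes tested. On data simulated from the libraries' own means and spreads, MII was compared with GV over 13675 genes. There 81 of 94 genes changed by 1.5 on the log2 scale and 103 of 106 changed by 2 were called in the right direction. Of the unchanged genes 10 were called. The 200 changed genes were drawn from well-expressed genes only, and the other genes had the same mean in all groups. The run therefore does not measure recovery of low genes or the choice of scaling.

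Named genes were the 8 members, Btg4, from each list (lattice partners, relatives) up to 4 called genes (mean of 10 scaled TPM or more, largest change in MII against GV), and the genes nearest in pattern. Oocyte and cumulus markers were listed as well. The members and lists were chosen with earlier results of these data known. Annotation and 3′ sequences came from GENCODE M21, an earlier release than that of the authors on the same build. Other settings tried were quantile normalization, the deposited TPM without further scaling, a scale set by the mitochondrially encoded genes, no filter, a 5 TPM filter, a pseudocount of 0.1, a fit without trend, a fit to the 4 libraries compared, a block for the replicate number, calls by adjusted p alone and fits that left out 1 library.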

Additional observations from a re-analysis of the deposited data

How the results depend on the processing

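Across 544 alternative values of the members' fold changes, 496 kept their sign and their side of the call. Of the others, 33 changed sign, 8 lost a call and 7 gained one. Of the 33, 28 were under 0.5 in size and 5 had an adjusted p under 0.05 (limma). The tally overstates robustness, since the filters, the replicate block and the fit without trend leave a fold change unaltered. Leaving out a library outside a comparison moves it only through the scaling. Tle6, Khdc3, Ooep and Nlrp2 kept their sign in both main comparisons under every alternative, and of these only Tle6 also kept its side of the call throughout. Precision rests on 2 libraries per group, depth is unknown, and where 1 library was left out the remaining one was assumed to vary like the other groups. The cause of the changes was not tested, except that scaling to the mitochondrially encoded genes moved the median of all genes to -1.74 (MII against GV), 0.88 (Btg4tm against Btg4wt), 0.39 (Btg4wt against MII) and -0.64 (Btg4tm against GV). TPM as deposited moved it to -0.13, -0.0045, 0.03 and -0.21, and quantile normalization to 0.28, -0.19, 0.0007 and -0.02. All genes called higher and lower numbered 1752 and 3351 for MII against GV and 2534 and 1109 for Btg4tm against Btg4wt. They numbered 7 and 11403, and 6089 and 69, with mitochondrial scaling, 3154 and 2662, and 2055 and 1810, with quantile normalization, 1145 and 3699 for MII against GV with TPM as deposited, and 4168 and 4575, and 3666 and 3251, with no minimum fold change. For Btg4tm against GV they numbered 143 and 142, and over the alternatives 38 to 1070 higher and 24 to 2972 lower. For Btg4wt against MII they numbered 0 and 0, except for 69 higher with mitochondrial scaling and 1 lower with the replicate block.

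With mitochondrial scaling 0 members were called higher and 8 lower for MII against GV, 5 higher and 0 lower for Btg4tm against Btg4wt, 1 higher for Btg4wt against MII (Padi6, 1.15) and 1 lower for Btg4tm against GV (Khdc3, -1.43). The fold changes that turned with it were Nlrp5 -2.07, Zbed3 -1.04, Nlrp4f -2.06, Btg4 -1.10, Dnmt1 -1.90 and Khdc1a -1.45 for MII against GV. For Btg4tm against Btg4wt they were Nlrp4f 0.79, Padi6 0.56, Btg4 0.63 and Dnmt1 0.069, for Btg4wt against MII Zbed3 0.49, and for Btg4tm against GV Nlrp5 -0.41, Tle6 -0.29 and Nlrp4f -0.31. With quantile normalization 0 members were called higher for MII against GV, and 1 higher and 0 lower for Btg4tm against Btg4wt. There Nlrp4f (-0.022, MII against GV) and Nlrp5 (-0.019, Btg4tm against Btg4wt) changed sign. With TPM as deposited Nlrp5 (-0.017) and Nlrp4f (-0.0077) did so for MII against GV and Zbed3 (0.0067) for Btg4wt against MII. With only the 4 libraries of the comparison Khdc3 was at -0.016 for Btg4wt against MII, and Zbed3 at 0.00040 and Padi6 at 0.040 for Btg4tm against GV. With no minimum fold change 2 members were called lower for Btg4tm against Btg4wt.

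Leaving out each library in turn gave 1 to 2 members called higher for Btg4tm against Btg4wt. Signs changed within these ranges: Nlrp5 -0.0079 to 0.29 (MII against GV), -0.087 to 0.13 (Btg4tm against Btg4wt) and -0.012 to 0.14 (Btg4wt against MII), Khdc3 -0.49 to 0.51 and Zbed3 -0.017 to 0.022 (Btg4wt against MII), and Ooep -0.37 to 0.087, Zbed3 -0.27 to 0.12 and Padi6 -0.24 to 0.13 (Btg4tm against GV). The log2 ratio of the members' summed scaled TPM to GV was 0.70 for MII (0.58 to 0.83 leaving out a library, 0.54 with TPM as deposited, -1.52 with mitochondrial scaling), 0.81 for Btg4wt (0.69 to 0.95, 0.66 and -0.91) and -0.02 for Btg4tm (-0.15 to 0.11, and -0.66 with mitochondrial scaling).

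Same-numbered libraries did not deviate together (correlations of their deviations from the group means of -0.05 to 0.06), so the numbers were not taken as pairs. With the replicate number as a block, the fit called 1 member higher and 3 lower for MII against GV and 2 higher and 1 lower for Btg4tm against Btg4wt, as without it.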
